A study of Drosophila melanogaster with 6 samples.

Results

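The mitochondrial ribosomal proteins were examined in fat bodies of adult female Drosophila melanogaster. These are the genes whose current symbol starts with mRpL or mRpS. The table of read counts held 71 of them among 15682 genes, with 47 proteins named for the large subunit and 24 for the small subunit. Membership was set by symbol alone, without use of the counts, though earlier results of these data were known at the time.

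RNA-seq was performed on 6 libraries in 2 groups of 3. In FB-Dp110DN flies a constitutive fat body GAL4 driver expressed a dominant-negative Dp110, the catalytic subunit of the insulin-responsive phosphoinositide 3-kinase (PI3K), which has a defective ATP binding domain. FB-GAL4 flies carried only the driver and were the control. Both groups were in the white Dahomey background, were Wolbachia positive and were aged 7 to 10 days. The labels give 5 pooled flies per sample. A different pool size stands in the methods, and the difference was not resolved. Mutant and control samples were processed in pairs by day per the methods, and the shared replicate numbers were taken to mark these pairs, as described with the processing.

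Mitochondria carry their own ribosomes, which translate the few proteins encoded by the mitochondrial genome, all of them subunits of the respiratory chain and of ATP synthase. The ribosomal RNAs of these ribosomes come from the mitochondrial genome. Their proteins are encoded in the nucleus, made in the cytosol and imported. Many are related to bacterial ribosomal proteins and share their numbers, and others occur only in mitochondria.

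Total counts ranged from 22607341 to 36870161 per library. Pi3K92E, which encodes Dp110 and also collects the reads of the transgene, stood at 892, 1246 and 343 CPM (counts per 1000000, with library sizes scaled by TMM) in FB-Dp110DN replicates 1, 2 and 3, and at 81.0, 89.9 and 94.1 CPM in FB-GAL4, so every library lay on the side of its label. All 11 fat body markers in the table were detected. They summed to 85230, 94240 and 68320 CPM in FB-Dp110DN and to 86280, 69100 and 32240 CPM in FB-GAL4. Of the 10 tested, 9 had a higher estimate, and the median log2 fold change was 0.44. The 1 with a lower estimate was at -2.16 on the log2 scale. Markers of other cell types were present as well. The 15 muscle markers summed to 10110, 11740 and 43780 CPM in FB-Dp110DN and to 8641, 7194 and 23470 CPM in FB-GAL4, and 14 of them had a higher estimate in FB-Dp110DN. The 13 ovary markers summed to 1902 to 3342 CPM and 2806 to 3277 CPM, and 12 had a lower estimate, with medians of -0.38, -1.10 and -0.115 on the log2 scale in pairs 1, 2 and 3. The summed ranges were 5372 to 25360 CPM and 5530 to 21340 CPM for 11 gut markers, 155 to 193 CPM and 110 to 137 CPM for 5 neuronal markers, and 215 to 251 CPM and 172 to 190 CPM for 5 hemocyte markers. Higher estimates were given for 9 of 10 tested gut markers and for all 5 neuronal and all 5 hemocyte markers. No marker listed here was at 0 in all libraries. Replicate 3 of both groups held the most muscle RNA. What part these cells have in the results below was not tested, and in bulk RNA fewer cells of a type and less RNA per cell cannot be told apart.

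To ask how the mitochondrial ribosome responds when Dp110 signalling is lowered, its protein genes were first summed in each library. As a share of all counts they were lower in FB-Dp110DN. They held 0.160%, 0.148% and 0.159% of the counts in FB-Dp110DN replicates 1, 2 and 3, against 0.176%, 0.191% and 0.184% in FB-GAL4. The groups did not overlap, and the means were 0.155% ± 0.00634 (SD, n = 3) and 0.184% ± 0.00767 (SD, n = 3). A share of counts also falls when a few abundant genes take more of the library, and the part of such genes here was not tested. After scaling with TMM factors, which centre the libraries on the bulk of genes, the difference was no longer seen. The summed level was then 1618, 1592 and 1818 CPM in FB-Dp110DN and 1721, 1754 and 1639 CPM in FB-GAL4. These groups overlapped, with means of 1676 ± 124 CPM (SD, n = 3) and 1705 ± 59.1 CPM (SD, n = 3). The FB-Dp110DN library of replicate 3 was the highest of the 6 and those of replicates 1 and 2 were the lowest.

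**Figure D1:**
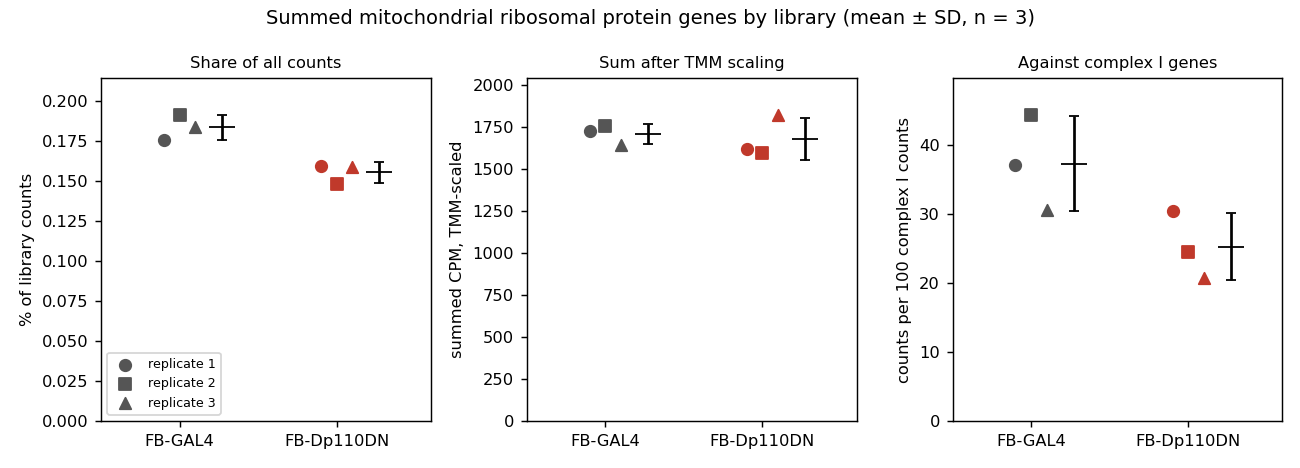
Summed mitochondrial ribosomal protein genes in each library, as % of all counts (left), as TMM-scaled CPM (middle) and per 100 counts of nuclear complex I genes (right). Points are libraries, with the replicate given by the symbol, and bars are mean ± SD (n = 3). The groups are apart in the left panel, overlap in the middle panel (1592 to 1818 CPM against 1639 to 1754 CPM) and are just apart in the right panel (20.8 to 30.4 against 30.5 to 44.3).

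Single genes were then tested with edgeR's quasi-likelihood test, with the replicate number as a block and Benjamini-Hochberg adjustment over all 10398 genes that passed a filter on low counts. Of the 71 genes, 70 passed the filter, each with at least 125 counts in every library. None was called at an adjusted p-value under 0.05 in either direction, where 0.0289% of all tested genes were called. With DESeq2 (Wald test, block kept) 0 were called as well, where it called 3.89% of genes as lower and 6.82% as higher. At an unadjusted p-value under 0.05, edgeR found 1 gene lower (mRpS23) and 1 higher (mRpL28), against 12.5% and 13.1% of all tested genes. The share of 1.43% in each direction was thus below the background. An absolute log2 fold change over 0.25 was reached by 9 of the 70 genes, against 58.2% of all tested genes. Here and below, the background of all tested genes was not matched for expression level. The standard errors of the 70 log2 fold changes ran from 0.12 to 0.22.

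The fitted log2 fold changes of the 70 genes had a median of -0.03, with the middle 50% between -0.15 and 0.04 and a whole range of -0.42 to 0.41. Over all tested genes the median was 0.04 and the middle 50% lay between -0.26 and 0.36. Of the 70 genes, 45 had a lower estimate, which is 64.3% against 46.5% of all genes. The median of the genes was -0.10, -0.15 and 0.14 on the log2 scale in pairs 1, 2 and 3. Pair 3 therefore went the other way from pairs 1 and 2, and without it the median was -0.12. With total counts as the only scaling the median was -0.24 and 68 of 70 genes had a lower estimate, while the median of all genes was -0.17 and 64.8% of them had a lower estimate.

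The direction was read in each same-numbered pair. Of the 70 genes, 16 were lower in all 3 pairs, where the share among all tested genes was 27.7%, and 4 were higher in all 3 pairs, where it was 28.3%. The other 50 had mixed signs. In 7 genes every FB-Dp110DN library was below every FB-GAL4 library, against 21% of all tested genes, and in 1 gene every one was above, against 11.6%. Each of these shares of the 70 genes is below its background. Among libraries, FB-Dp110DN replicate 2 held the lowest value of the 6 for 29 genes and FB-Dp110DN replicate 3 the highest value for 28. Relative to total counts, without TMM factors, 35 of the 70 genes were lower with groups apart, against 35.1% of all tested genes, and 0 were higher, against 3.98%. The first of these shares is above its background.

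**Figure D2:**
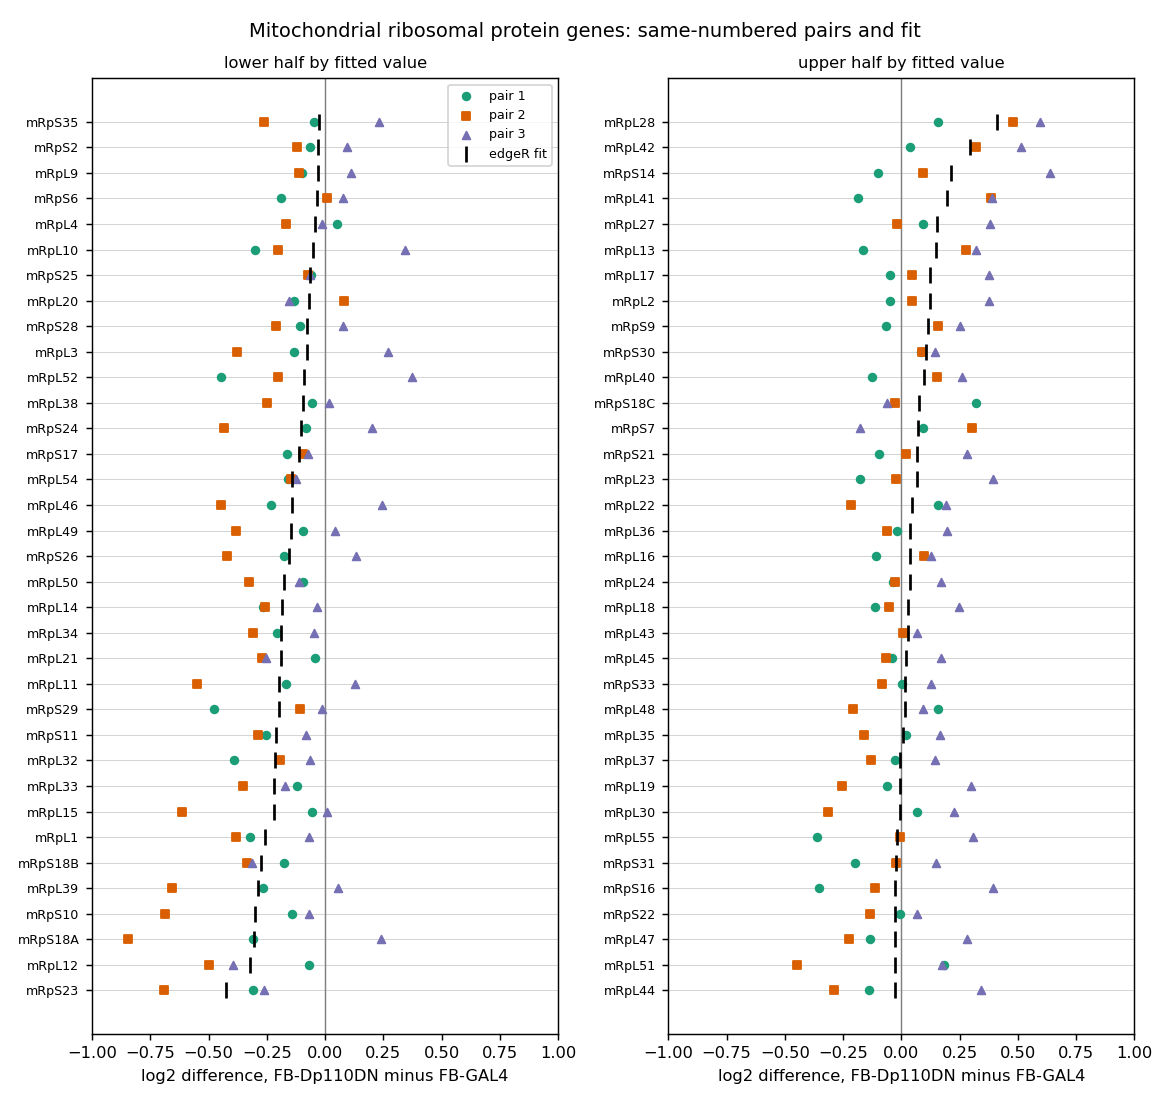
Log2 difference between FB-Dp110DN and FB-GAL4 for each of the 70 tested genes, in the 3 same-numbered pairs (coloured symbols) and in the edgeR fit (black bars), ordered by the fit. Pair 2 lies mostly to the left of 0 and pair 3 mostly to the right, with medians of -0.15 and 0.14, and the range of the fit is -0.42 to 0.41.

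The gene with the smallest p-value was mRpL28 (FBgn0031660, arm 2L), the counterpart of a bacterial large subunit protein. It stood at 62.1, 68.8 and 89.3 CPM in FB-Dp110DN replicates 1, 2 and 3 and at 55.6, 49.2 and 59.2 CPM in FB-GAL4. Every FB-Dp110DN library was above every control. The means were 73.4 ± 14.2 CPM (SD, n = 3) and 54.7 ± 5.02 CPM (SD, n = 3). The log2 fold change was 0.41 (SE 0.14), and the adjusted p-values were 0.162 in edgeR and 0.0828 in DESeq2, so the difference did not pass. With total counts as the only scaling the value was 0.20.

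Behind it among genes with a positive value in all 3 pairs came mRpL42, mRpS30 and mRpL43. The mitochondria-specific large subunit gene mRpL42 (arm 2R) stood at 12.6, 15.6 and 24.5 CPM in FB-Dp110DN and at 12.2, 12.5 and 17.1 CPM in FB-GAL4. Replicate 3 was the highest in both groups, and the groups overlapped. The fit gave 0.29 (SE 0.17) on the log2 scale, and the adjusted p in edgeR was 0.297. The value was 0.45 without replicate 1, 0.19 without replicate 3 and 0.08 with total counts as the only scaling. For mRpS30 (arm X), whose mammalian protein sits in the large subunit in spite of its name, the log2 fold change was 0.11 (SE 0.12). It stood at 83.8, 93.8 and 72.4 CPM against 79.0, 88.2 and 65.5 CPM with the replicates in the same order in both groups. The mitochondria-specific mRpL43 (arm 2R) stood at 14.8, 14.01 and 17.3 CPM against 14.7, 13.95 and 16.5 CPM, again with overlap, and its log2 fold change was 0.03 (SE 0.15). With total counts as the only scaling the values of mRpS30 and mRpL43 turned to -0.11 and -0.19.

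The gene with the lowest estimate was mRpS23 (FBgn0260407, arm 2L), a mitochondria-specific protein of the small subunit. It stood at 13.96, 10.9 and 11.02 CPM in FB-Dp110DN and at 17.3, 17.7 and 13.2 CPM in FB-GAL4. The groups overlapped only through FB-Dp110DN replicate 1 and FB-GAL4 replicate 3. The means were 12.0 ± 1.73 CPM (SD, n = 3) and 16.1 ± 2.49 CPM (SD, n = 3). The log2 fold change was -0.42 (SE 0.17), with an unadjusted p-value of 0.0484 and an adjusted p-value of 0.194 in edgeR.

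The stalk of the large subunit, where translation factors bind and hydrolyse GTP, holds mRpL12, mRpL10 and mRpL11. The protein mRpL12, the counterpart of bacterial L7/L12, is the flexible part of the stalk and is known in Drosophila for its requirement in the growth driven by cyclin D and Cdk4. The gene (FBgn0011787, arm 3L) stood at 48.4, 37.5 and 36.8 CPM in FB-Dp110DN and at 50.8, 52.9 and 48.4 CPM in FB-GAL4. Replicate 1 of FB-Dp110DN and replicate 3 of FB-GAL4 were nearly level, and the groups were apart by that narrow gap. The means were 40.9 ± 6.51 CPM (SD, n = 3) and 50.7 ± 2.26 CPM (SD, n = 3). The fit gave -0.32 (SE 0.14) on the log2 scale, and the adjusted p in edgeR was 0.206. The gene mRpL10 (arm 2L) encodes the base of the stalk, to which mRpL12 binds. It stood at 24.6, 26.9 and 38.9 CPM against 30.3, 30.9 and 30.7 CPM, with its FB-Dp110DN replicates spread on both sides of a tight control group and a log2 fold change of -0.05 (SE 0.17). For mRpL11 (arm 3R) the values were 10.7, 9.19 and 12.8 CPM against 12.0, 13.5 and 11.7 CPM, and the log2 fold change was -0.20 (SE 0.20). It was -0.02 without replicate 2 and -0.35 without replicate 3. The edgeR adjusted p-values were 0.852 for mRpL10 and 0.536 for mRpL11.

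A further 4 genes completed the lower end by p-value among those lower in all 3 pairs. The counterpart of bacterial L1, mRpL1 (arm 3R), stood at 33.4, 34.6 and 34.8 CPM in FB-Dp110DN and at 41.8, 45.1 and 36.5 CPM in FB-GAL4, with a log2 fold change of -0.26 (SE 0.13). The S18-type gene mRpS18B (arm 2L) stood at 14.6, 13.5 and 13.8 CPM against 16.5, 17.1 and 17.2 CPM, with a log2 fold change of -0.28 (SE 0.15). For mRpL1 and mRpS18B the groups were apart. The groups of mRpS10 and mRpS11, counterparts of bacterial small subunit proteins, overlapped. In FB-Dp110DN mRpS10 stood at 24.0, 18.6 and 27.8 CPM and in FB-GAL4 at 26.5, 30.1 and 29.2 CPM. For mRpS11 the values were 22.0, 21.01 and 20.1 CPM against 26.2, 25.7 and 21.3 CPM. Their log2 fold changes were -0.30 (SE 0.17) for mRpS10 and -0.21 (SE 0.14) for mRpS11. Without replicate 2 the value of mRpS10 was -0.11. The edgeR adjusted p-values of these genes ran from 0.247 for mRpL1 to 0.350 for mRpS11.

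**Figure D3:**
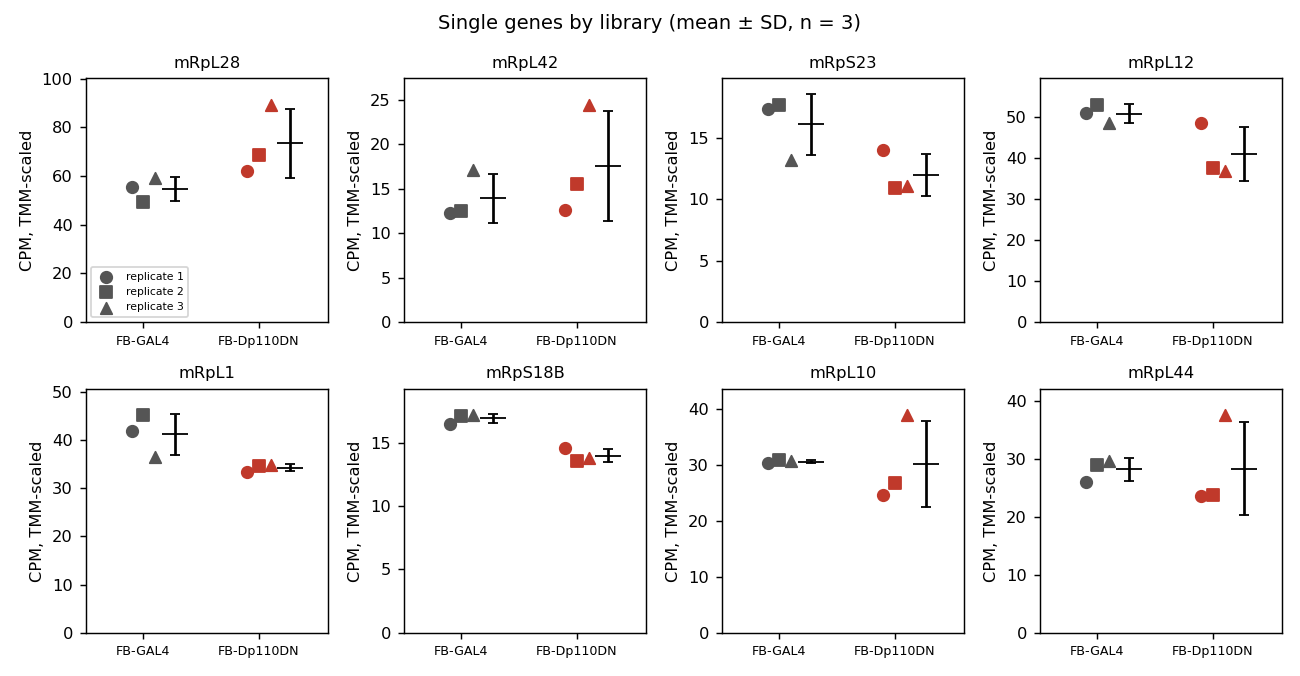
CPM after TMM scaling for 8 mitochondrial ribosomal protein genes, with libraries as points (replicate by symbol) and mean ± SD (n = 3). The FB-Dp110DN libraries lie above the controls for mRpL28 and below them for mRpL1, mRpS18B and, by a narrow gap, mRpL12, and in mRpL10 and mRpL44 replicate 3 of FB-Dp110DN stands above all other libraries.

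Further genes were picked for their role, and none of them passed the test. The GTP-binding small subunit protein mRpS29, known as DAP3 in mammals, stood at 29.2, 31.1 and 33.5 CPM in FB-Dp110DN and at 40.8, 33.5 and 33.8 CPM in FB-GAL4. The groups were apart by a narrow gap between replicate 3 of FB-Dp110DN and replicate 2 of FB-GAL4, and the log2 fold change was -0.20 (SE 0.14), which became -0.03 without replicate 1. The exit tunnel protein mRpL45, which in mammals holds the ribosome to the inner membrane, stood at 43.5, 46.3 and 47.9 CPM against 44.7, 48.4 and 42.6 CPM, so that the groups overlapped. Its log2 fold change was 0.02 (SE 0.12). For mRpL44, which has a fold like that of ribonuclease III, the values were 23.6, 23.7 and 37.5 CPM against 25.9, 29.0 and 29.6 CPM, and the log2 fold change was -0.03 (SE 0.17). The edgeR adjusted p-values were 0.394 for mRpS29, 0.918 for mRpL45 and 0.924 for mRpL44.

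Levels were compared between genes per kb of exonic length, merged over all transcripts of a gene in BDGP6, an annotation later than that of the counts. Over the 70 genes and all libraries the mean level ran from 10.51 to 62.1 CPM per kb around a median of 25.7, a range under 10-fold. Over all libraries the highest was mRpL12 at 62.1 CPM per kb, a protein that is present in several copies per ribosome in bacteria, and its stalk partner mRpL10 was at 33.6. The order of the group means differed, though neither mRpL12 nor mRpL28 passed the test. In FB-GAL4 mRpL12 led at 68.7 CPM per kb with mRpL28 at 46.7, and in FB-Dp110DN mRpL28 led at 62.7 with mRpL12 at 55.4. In FB-Dp110DN replicate 1 mRpL12 still led, with 48.4 CPM over 738 bases beside 62.1 CPM over 1170 bases for mRpL28. Behind mRpL12 over all libraries came mRpL28 at 54.7, mRpS7 at 52.6 and mRpS9 at 49.9 CPM per kb, the last pair being proteins of the small subunit head. The lowest were mRpL21 at 10.51, mRpL48 at 13.1 and mRpL11 at 15.8 CPM per kb. This order depends on the lengths used. Without them mRpL33 was the lowest, at a mean of 6.03 CPM, and mRpL21, with 1696 exonic bases, stood at 17.8 CPM. In CPM, mRpS7 stood at 56.0, 53.5 and 39.5 in FB-Dp110DN and at 52.5, 43.3 and 44.6 in FB-GAL4, and mRpS9 at 60.1, 67.8 and 73.7 against 62.9, 60.8 and 62.0, so the groups overlapped in both genes. The low genes overlapped as well, with mRpL21 at 19.4, 15.8 and 14.9 CPM against 20.0, 19.1 and 17.8 CPM, and mRpL48 at 10.52, 9.57 and 10.98 CPM against 9.43, 11.1 and 10.3 CPM. Across the 70 genes the log2 fold change had a Spearman correlation of 0.06 with the mean level and 0.06 with the exonic length, as a description over genes that share libraries.

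The gene mRpL53 (FBgn0050481, arm 2R) had 0 counts in all 6 libraries and did not pass the filter. Its whole exonic length of 829 bases lies on the same strand within exons of CG33155 in the later annotation BDGP6, so a count of 0 says nothing here about its expression. In that annotation 42 of the 71 genes share exonic bases with another gene, mostly on the opposite strand, and the strand setting of the counting was not given. The symbols mRpS34 and mRpS5 belong to identifiers that were not in the table and were not analysed here.

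The parts of the ribosome were described side by side. Subunits were assigned by symbol, so mRpS30 and mRpS18A were counted with the small subunit. The mammalian mRpS30 protein sits in the large subunit. This gene held a mean of 83.3 of 624 summed small subunit CPM in FB-Dp110DN and 77.6 of 640 in FB-GAL4. The ratio of subunits given here depends on this assignment. The median log2 fold change was -0.03 over 46 genes of the large subunit and -0.03 over 24 of the small subunit. Large subunit genes held 166, 156 and 184 counts per 100 counts of small subunit genes in FB-Dp110DN, and 164, 161 and 174 in FB-GAL4. The ratio was the highest at replicate 3 in both groups, and the groups overlapped. Genes whose number is that of a bacterial protein had a median of -0.03 (41 genes), as did the mitochondria-specific ones (29 genes). By place in the mammalian ribosome, the medians were -0.20 for the 3 stalk genes, 0.01 for 9 genes of the central protuberance, 0.03 for 8 of the exit tunnel and -0.00 for 8 of the small subunit head. By chromosome arm they ran from -0.08 on 2R to -0.01 on 2L.

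Other genes of the mitochondrial translation system were read from the same fit. A pair of small subunit proteins carries other symbols. The S12-type gene tko, in which mutations give a bang-sensitive and deaf fly, stood at 27.7, 25.7 and 33.6 CPM in FB-Dp110DN and at 27.5, 30.0 and 28.9 CPM in FB-GAL4, with a log2 fold change of 0.00 (SE 0.14). The S15-type gene bonsai stood at 40.1, 37.5 and 43.3 CPM against 47.2, 48.2 and 41.8 CPM, with -0.18 (SE 0.14). The value of bonsai was -0.09 without replicate 2 and -0.29 without replicate 3. The groups overlapped in both genes, and the edgeR adjusted p-values were 0.994 for tko and 0.407 for bonsai.

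Of the 9 tested translation factors, 6 had a lower estimate and 0 passed. The release factor gene mRF1 had the smallest p-value, at 12.6, 11.6 and 8.23 CPM in FB-Dp110DN and 14.7, 15.7 and 11.6 CPM in FB-GAL4. It was lower in each pair, by -0.38 (SE 0.16) on the log2 scale in the fit, and the adjusted p in edgeR was 0.208. The elongation factor gene mEFTu1, which delivers aminoacyl-tRNA, had 0.19 (SE 0.12) and was higher in each pair. Another list held 17 tested genes of tRNA charging in mitochondria, with 14 aminoacyl-tRNA synthetases, the synthetase paralogue Slimp, and GatA and GatB, subunits of an amidotransferase that completes the charging of glutamine tRNA. Of the 17 genes, 14 had a lower estimate, with a median of -0.12, and 0 passed. The aspartyl enzyme AspRS-m was at 68.0, 55.5 and 64.1 CPM against 80.2, 87.8 and 75.02 CPM. Its groups were apart. Genes named from both lists were picked for small p-values, so groups apart or equal signs are no separate support. For AspRS-m the fit gave -0.38 (SE 0.14) on the log2 scale, and the adjusted p in edgeR was 0.180. The leucyl enzyme LeuRS-m had -0.32 (SE 0.14). In this list 6 of 17 genes had FB-Dp110DN below FB-GAL4 without overlap, against 21% of all tested genes. Ribosomal protein genes held 545, 584 and 577 counts per 100 counts of this list in FB-Dp110DN and 517, 484 and 514 in FB-GAL4, with the groups apart.

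The genes for copying and transcribing the mitochondrial genome had a median of -0.09 over 9 tested genes, of which 6 had a lower estimate. The replicative helicase mtDNA-helicase had a log2 fold change of -0.46 (SE 0.20) and the polymerase subunit PolG1 of -0.49 (SE 0.23). The 12 tested genes of protein import and folding, through which ribosomal proteins reach the matrix, had a median of -0.00, with 6 lower and 6 higher. The import pore gene Tom40 had -0.33 (SE 0.15) and the matrix chaperone Hsc70-5 had 0.24 (SE 0.14). None of these 4 genes passed, with edgeR adjusted p-values of 0.209 to 0.318.

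Among 10 regulators of mitochondrial biogenesis, the smallest p-values were those of CycD and srl. The gene srl encodes Spargel, the fly PGC-1, a coactivator of nuclear genes for mitochondrial proteins. It stood at 146, 109 and 133 CPM in FB-Dp110DN and at 186, 238 and 194 CPM in FB-GAL4. Cyclin D (CycD) stood at 49.8, 39.7 and 43.4 CPM against 64.1, 77.8 and 64.5 CPM. In both genes every FB-Dp110DN library was below every control, which held for 21% of all tested genes. Both were picked for their small p-values, so the gap between groups is no separate support. The log2 fold changes were -0.67 (SE 0.18) for srl and -0.64 (SE 0.16) for CycD. The edgeR adjusted p-value was 0.157 for each, and the DESeq2 Wald test gave 0.0301 and 0.0315. Of the 10 genes, edgeR called 0. DESeq2 called 2 as lower, against 3.89% of all genes it tested, and 1 as higher, against 6.82%. The gene called as higher was Thor, with a log2 fold change of 0.51 (SE 0.16) in edgeR. A lower estimate was given for 6 of the 10 and a higher one for 4. Lower in all 3 pairs were 3 genes, against 27.7% of all tested genes, and higher in all 3 pairs were 3, against 28.3%. In pairs 1, 2 and 3 the log2 differences were -0.35, -1.12 and -0.55 for srl and -0.37, -0.97 and -0.57 for CycD. The ovary markers had a lower median in each pair as well, lowest in pair 2, and their part in these values was not tested.

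Respiratory chain genes in the same libraries gave other values. The 33 tested nuclear genes of complex I (symbols starting ND-) had a median log2 fold change of 0.48, and all 33 had a higher estimate. Their pair medians were 0.17, 0.58 and 0.72, beside -0.10, -0.15 and 0.14 for the mitochondrial ribosomal proteins. Nuclear genes of complexes III, IV and V had a median of 0.55 over 30 genes, the 13 protein genes of the mitochondrial genome 0.52, and 81 cytosolic ribosomal proteins 0.13. With total counts as the only scaling these medians were 0.27 for complex I, 0.34 for complexes III, IV and V, 0.30 for the mitochondrial genome and -0.09 for the cytosolic ribosomal proteins, beside -0.24 for the mitochondrial ribosomal proteins. In edgeR 0 genes of these lists passed. DESeq2 called as higher 17 of the 33 genes of complex I, 18 of the 30 of complexes III, IV and V, 5 of the 13 of the mitochondrial genome and 0 of the 81 cytosolic ribosomal proteins, against 6.82% of all genes it tested. The 15 muscle markers had a median of 0.62, with 14 of 15 higher in estimate and pair medians of 0.22, 0.81 and 0.89. The fat body markers had pair medians of 0.05, 0.46 and 0.72. The part of either cell type in the respiratory chain values was not tested.

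A ratio within a library does not depend on how libraries are scaled. Mitochondrial ribosomal protein genes held 30.4, 24.5 and 20.8 counts per 100 counts of complex I genes in FB-Dp110DN replicates 1, 2 and 3, and 37.1, 44.3 and 30.5 in FB-GAL4. The ratio was lower in each pair. The groups were apart by a narrow gap between FB-Dp110DN replicate 1 and FB-GAL4 replicate 3, and the means were 25.2 ± 4.86 (SD, n = 3) and 37.3 ± 6.90 (SD, n = 3). Against the protein genes of the mitochondrial genome the ratio was 3.73, 3.22 and 2.04 in FB-Dp110DN and 4.29, 5.56 and 3.09 in FB-GAL4, also lower in each pair but with overlap. Against cytosolic ribosomal proteins it was 2.04, 1.79 and 2.71 against 2.14, 2.35 and 2.77, with overlap. Against nuclear genes of complexes III, IV and V it was 15.36, 13.52 and 6.333 against 18.04, 21.87 and 11.06. This ratio was lower in each pair, but the groups overlapped. The groups also overlapped in the ratios to genes of protein import and folding and to the mitochondrial rRNA genes. These ratios are descriptions, and the difference between lists was not tested.

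The RNA part of the ribosome comes from the mitochondrial genome. The large rRNA gene mt:lrRNA stood at 40740, 40230 and 105800 CPM in FB-Dp110DN and at 38180, 31050 and 56270 CPM in FB-GAL4. Replicate 3 was the highest in both groups, and the groups overlapped. The small rRNA gene mt:srRNA stood at 184, 142 and 793 CPM against 160, 114.5 and 269 CPM. The log2 fold changes were 0.46 (SE 0.27) for mt:lrRNA and 0.69 (SE 0.29) for mt:srRNA, with edgeR adjusted p-values of 0.311 and 0.201, and both were higher in each pair. Per the labels the libraries were made with an mRNA protocol. The summed muscle markers were also highest in replicate 3 of each group, and their part in these values was not tested.

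**Figure D4:**
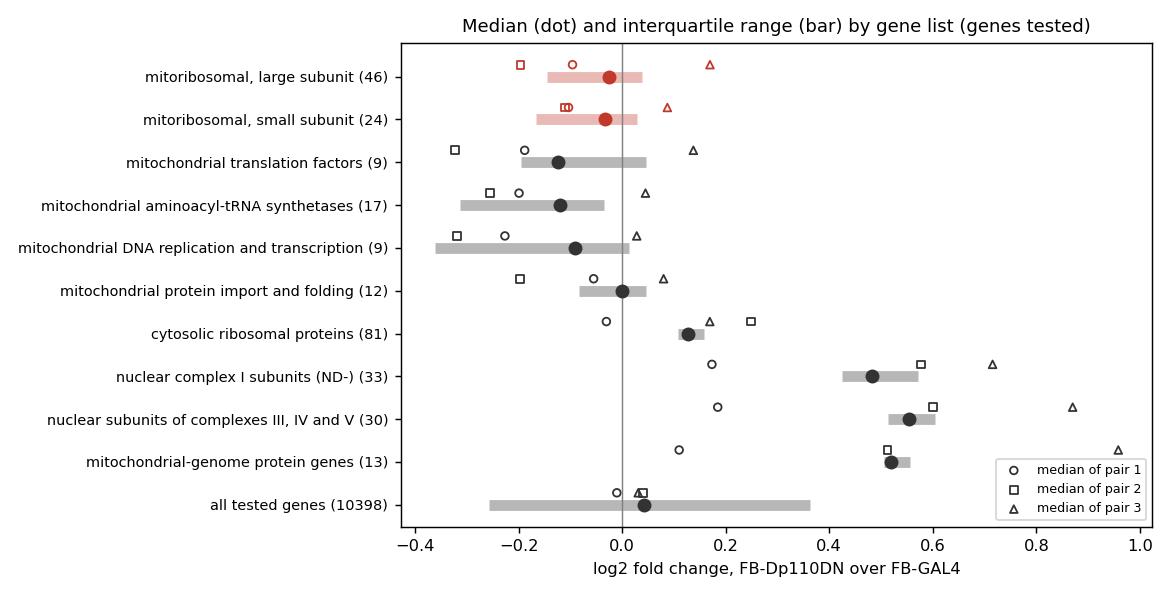
Fitted log2 fold change by gene list, with the number of tested genes in brackets, the median as a filled dot, the middle 50% of genes as a bar and the medians of the 3 pairs as open symbols. Both subunits of the mitochondrial ribosome, assigned by symbol, lie at -0.03, beside 0.48 for complex I and 0.04 for all tested genes. Pair 3 lies to the right of pairs 1 and 2 for both subunits.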

How the data were processed

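Fat body RNA from 6 samples was made into libraries from 1 ug of RNA with 10 PCR cycles. Per the study's methods the authors aligned paired-end reads with TopHat 2.0.11 to BDGP5.70 and counted them per gene with HTSeq. The deposited values used here are raw counts per gene, without normalization. The deposited fold changes, errors and p-values of the authors' own DESeq2 comparison were not used. Symbols were found for 15002 of 15682 identifiers, and arms, exonic lengths and overlaps between exons come from BDGP6. No BDGP6 coordinates are printed, and only its exonic lengths were joined to the counts, for the values per kb.

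2-sided tests were run in R 4.3.3 with edgeR 4.0.16 (glmQLFit and glmQLFTest), after filterByExpr and TMM scaling, with group and replicate number in the model. Calls were made at a Benjamini-Hochberg adjusted p-value under 0.05. CPM used TMM-scaled library sizes, and pair differences were taken on log2 CPM with a prior count of 2. The SE was taken as the size of the log2 fold change divided by the root of the F statistic. DESeq2 1.42.0 (Wald test, same block) was an alternative, as were its size factors, other filters, no block, a threshold of 0.1, leaving out each replicate and removing mitochondrial-genome genes. Scaling by total counts was added after the data were seen. The code was tested on simulated data. The replicate block follows the methods, which correct for the processing day of paired mutant and control samples. That the replicate numbers mark these pairs is not stated. Control replicates 2 and 3 carry the same short description in the labels and were told apart by the numbers in their titles. Deviations of same-numbered libraries from their group means correlated at 0.416, 0.189 and 0.590 across genes for numbers 1, 2 and 3. The mean was 0.399, against -0.181 for libraries of different number. Centring on group means ties these means to each other, so the check cannot establish the pairing. Across the mitochondrial ribosomal protein genes alone the same-number values were 0.163, 0.114 and 0.54. The methods call the samples biological repeats and do not say whether they came from separate cultures, so p-values measure the spread between these samples. No source mentions molecular identifiers, so reads may include PCR copies, and depth limits counting error only.

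Genes named were up to 6 higher and 6 lower of smallest p-value with the same sign in all 3 pairs, the 4 highest and 3 lowest per kb, 7 genes by role, genes that failed the filter, and up to 2 per list of mitochondrial translation. Others were chosen after their values were seen. The genes and lists were chosen with earlier results of these data known, and a few list symbols were respelled to match the reference.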

Additional observations from a re-analysis of the deposited data

How the results depend on the processing

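None of the 70 mitochondrial ribosomal protein genes was called under any of the 11 alternatives run. The adjusted threshold of 0.1 was applied to the edgeR fit only, and mRpL28, with an adjusted p of 0.0828 in DESeq2, would pass it there. The number called over all genes, 3 as reported, was 969 with the DESeq2 Wald test, 9 with no filter and 0 to 875 with 1 replicate left out. The highest of these came without replicate 3, where edgeR's prior degrees of freedom were infinite, against 4.05 with all libraries. Without the replicate block 0 genes were called over all genes, and 2 mitochondrial ribosomal protein genes were lower at an unadjusted p-value under 0.05, where 1 is reported. The latter count was 0 with DESeq2 size factors in edgeR, with the DESeq2 Wald test, with at least 10 counts in every library and with mitochondrial-genome genes removed, 10 with total counts as the only scaling, and 0 to 1 with 1 replicate left out. Total counts alone moved the median of all tested genes by -0.22 and the split of unadjusted calls from 1366 higher and 1300 lower to 393 and 2610. The split was 876 and 1592 without the block and 1581 and 1089 with DESeq2 size factors. For mRpL44, the fit without the block gave 0.0054 on the log2 scale.

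The median log2 fold change of the genes, -0.03, turned to 0.0053 with DESeq2 size factors and 0.001 with DESeq2, ran from -0.1195 to 0.0206 with 1 replicate left out, and was -0.2432 with total counts, where 68 genes had a lower estimate. For the large subunit it was 0.0066 with size factors, 0.0025 with DESeq2 and -0.1205 to 0.0484 with 1 replicate left out, and for the small subunit 6e-04 with size factors. With total counts the values were -0.0877 for cytosolic ribosomal proteins, -0.1089 for mRpS30, -0.1888 for mRpL43, -0.1409 for mRpS7, -0.1015 for mRpS9, -0.2016 for mRpL48, -0.1938 for mRpL45 and -0.2138 for tko. For the named mitochondrial ribosomal protein genes that were lower in all 3 pairs, total counts gave values from -0.64 for mRpS23 to -0.41 for mRpL21. For mRpL44 size factors gave 0.0053 and DESeq2 0.0012, and tko was at -0.0037 with no filter. With 1 replicate left out the ranges were 0.0529 to 0.237 for mRpS9, 0.0127 to 0.0701 for mRpL43, -0.0405 to 0.2055 for mRpS7, -0.0242 to 0.1268 for mRpL48, -0.2446 to 0.1039 for mRpL10, -0.2075 to 0.1047 for mRpL44, -0.0455 to 0.0856 for mRpL45 and -0.0995 to 0.1148 for tko. The cause of these changes was not tested. Scaling by total counts was chosen after seeing the data.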
